A study of Homo sapiens with 6 samples.

Results

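The cytochrome P450 (CYP) and UDP-glucuronosyltransferase (UGT) genes are 2 families of drug and steroid metabolism, described here in cells labelled HepG2, an established line from a human liver tumour. Members were all rows whose gene symbol had the form of a P450 gene (CYP, family number, letter, number) or of a gene of UGT families 1 to 3, with CYP51A1 left out. The deposited table held 37 such rows among 29435, of which 31 were P450 genes and 6 were UGT genes. Symbols with a further suffix, as most P450 pseudogenes have, were not counted. In the study, cells were kept for 4 h with saikosaponin A (SsA), a triterpenoid saponin of Bupleurum root, at 20 µM, or with the vehicle DMSO alone, and polyadenylated RNA was sequenced in 3 libraries per group. The labels name no genetic change in either group, and the comparison asks how transcripts differ after the treatment. Whether replicates were grown separately is not in the labels, and the p-values below reflect the spread between libraries, which may be technical.

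P450 enzymes are haem proteins that insert an oxygen atom into their substrate, with electrons passed on from NADPH by P450 reductase in the endoplasmic reticulum or by ferredoxin in mitochondria. Families 1 to 3 are known for oxidising drugs and other foreign compounds in the liver, while most later families each act on a body-own substrate such as a bile acid, a steroid, vitamin D or retinoic acid. UGT enzymes join glucuronic acid, or in family 3 another sugar, to such compounds, which makes them more soluble.

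Total counts ran from 57768359 to 74912492 per library. The share of counts on mitochondrial genes was 14.9% in DMSO replicate 3 and 18.8% in SsA replicate 1, against 6.19% to 8.28% in the other 4 libraries, so main results are also given for those 4 libraries alone. The hepatocyte label was checked against 21 marker genes, of which 12 had a row. Of these, 10 had a mean below 0.1 FPKM (fragments scaled by gene length and library size, a level that allows genes to be compared). CPS1, a urea cycle enzyme, was the only one at or above 1 FPKM, and its level was high. The 12 rows added up to 140 to 177 FPKM in DMSO and 136 to 156 FPKM in SsA libraries, nearly all of it from CPS1. HNF4A, the transcription factor that defines hepatocytes, had 0 to 8 counts per library, and the apolipoprotein gene APOA1 had 4 counts in 1 library and 0 in the other 5. The P450 and UGT levels below are therefore those of cells labelled HepG2 in which most hepatocyte transcripts were near 0.

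Few of the 37 genes were expressed. The mean over the 6 libraries was at least 1 FPKM for 6 P450 genes (CYP27C1, CYP2S1, CYP2R1, CYP26B1, CYP11A1 and CYP39A1) and for 0 UGT genes. Another 10 P450 genes and 1 UGT gene lay between 0.1 and 1 FPKM, and 15 P450 and 5 UGT genes lay below 0.1 FPKM. The lowest of the 6 was CYP39A1, at 0.726 to 1.26 FPKM, and just below the limit stood CYP2U1, at 0.654 to 0.980 FPKM. Of all rows, 38.2% had a mean of at least 1 FPKM, and of the 15588 protein-coding rows 63.6% did, against 16.2% of the P450 and UGT rows. Counts were present in all 6 libraries for 19 of the 37 genes, and 8 had counts in 1 library only. For scale, CYP51A1, the lanosterol demethylase of cholesterol synthesis that the rule leaves out, had 46.2 to 57.9 FPKM by itself, while the 31 P450 members added up to 23.9 to 27.9 FPKM in DMSO and 21.0 to 21.7 FPKM in SsA libraries. The plot of FPKM by gene and library shows CYP27C1 and CYP2S1 at the top in every library.

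**Figure D1:**
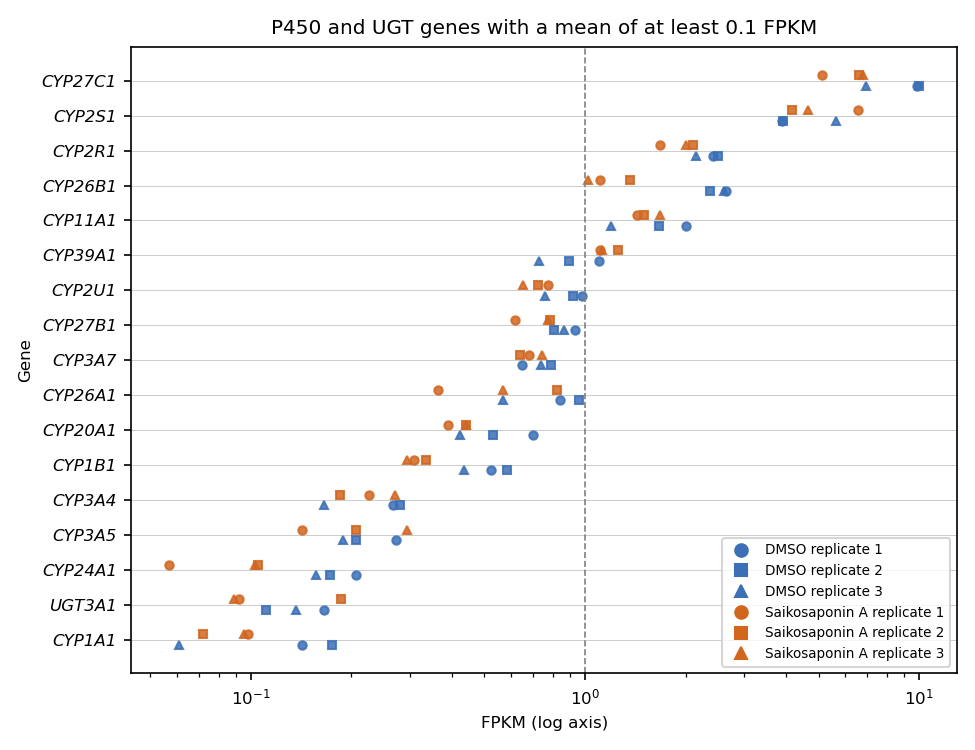
Level in FPKM (log axis) of the 17 P450 and UGT genes with a mean of at least 0.1 FPKM, with 1 point per library, the replicate shown by its shape and the group by its colour; the dashed line is 1 FPKM. Only 6 genes had a mean at or above the line, CYP27C1 reached 10.02 FPKM, and for CYP26B1 the 3 SsA libraries, at 1.02 to 1.36 FPKM, lay below the 3 DMSO libraries, at 2.37 to 2.65 FPKM.

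The P450 genes of families 1 to 3 that are known for drug oxidation were all below 1 FPKM. Of 18 such genes listed, 9 had a row, and their summed level was 1.66 to 2.17 FPKM in DMSO and 1.46 to 1.73 FPKM in SsA libraries. The highest was CYP3A7, the fetal liver form of family 3A, at 0.640 to 0.791 FPKM. CYP3A4, the main drug-oxidising P450 of adult liver, was at 0.165 to 0.280 FPKM, which is 39 to 80 counts per library. CYP2E1, which oxidises ethanol, and CYP2A6, which oxidises nicotine, had at most 7 and 4 counts in any library. CYP1A2, CYP2B6, CYP2C8 and CYP2C19 had no row under these symbols, so no level can be given for them. Among the genes that the authors' annotation puts under the KEGG term for drug metabolism by cytochrome P450, 10 were members, and 8 of those 10 had a mean below 0.1 FPKM.

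Of the 6 UGT rows, 5 had at most 8 counts in any library. UGT3A1, whose enzyme uses UDP-N-acetylglucosamine, was the only UGT gene above 0.1 FPKM, with 55 to 128 counts per library, at 0.166, 0.111 and 0.137 FPKM in DMSO and 0.092, 0.186 and 0.089 FPKM in SsA replicates 1, 2 and 3. Its groups overlapped, and its log2 change in counts was 0.04 ± 0.35 (SE), which did not pass the test described below. The 4 rows of the glucuronic acid-using families (UGT1A6, UGT1A7, UGT1A9 and UGT2B7) added up to 0, 8 and 7 counts in the DMSO and 0, 13 and 7 counts in the SsA libraries. A count of 0 allows up to 3 counts, which is 0.0400 to 0.0519 CPM (counts scaled to a common library size, here by the total count), and this limit covers counting error only. UGT1A6 had 8 and 4 counts in SsA replicates 2 and 3 and none elsewhere, and UGT1A9 had 7 counts in DMSO replicate 3 alone. The UGT1A genes overlap on the plus strand of chromosome 2 (GRCh38) and share their last exons, so the split of these few counts among them is uncertain. UGT1A1, the bilirubin enzyme, had no row under that symbol, so no level can be given for it.

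The change between groups was tested with edgeR's quasi-likelihood test on the deposited counts, for all 11427 rows with at least 1 FPKM in 3 or more libraries, and p-values were adjusted over all of them. Of the 6 P450 genes that passed this filter, 3 passed the threshold of 0.05: CYP39A1 was higher with SsA, and CYP26B1 and CYP27C1 were lower. Over all tested genes 53.8% passed, 25.9% higher and 27.9% lower, so the share among the P450 genes was near the background and is no result about the family. The 3 libraries of each group did not overlap for 4 of the 6 genes, 1 higher and 3 lower, against 62.8% of all tested genes, 30.4% higher and 32.4% lower. With the 4 libraries of low mitochondrial share 3 genes again passed, but CYP2S1 took the place of CYP39A1. Of these 6 genes only CYP26B1 passed under all 19 alternatives in which it was tested. On the log2(TPM + 1) scale, which is set by the share of all transcripts, 49 of the 11427 tested genes were higher and 2446 lower. On log2(FPKM + 1) 914 of them were higher and 3723 lower. CYP26B1 was the only one of the 6 genes called on either scale. The median log2 change of all tested genes was 0.03 in counts, -0.11 on log2(FPKM + 1) and -0.31 on log2(TPM + 1).

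Genes of lower level were read from a second fit with a limit of 0.1 FPKM in 3 libraries, which took in 18 members and 17545 rows in all. There 2 of the 18 passed, CYP39A1 (higher) and CYP26B1 (lower), against 39.2% of all rows in that fit, and 15.5% of the rows that only the lower limit let in. The groups did not overlap for 1 higher and 5 lower genes, against 52.0% of all rows, 22.6% higher and 29.4% lower. Of the 12 genes added by the lower limit 0 passed by edgeR, and DESeq2 called CYP1B1 alone. At an unadjusted p below 0.05, 5 of the 18 passed, against 47.9% of all rows in that fit. The other 19 members were below both limits. In a fit with no limit at all, 1 of the 37 members passed, CYP26B1, against 20.7% of all 29435 rows. The plot of changes with their errors shows that most intervals of the low genes span 0.

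**Figure D2:**
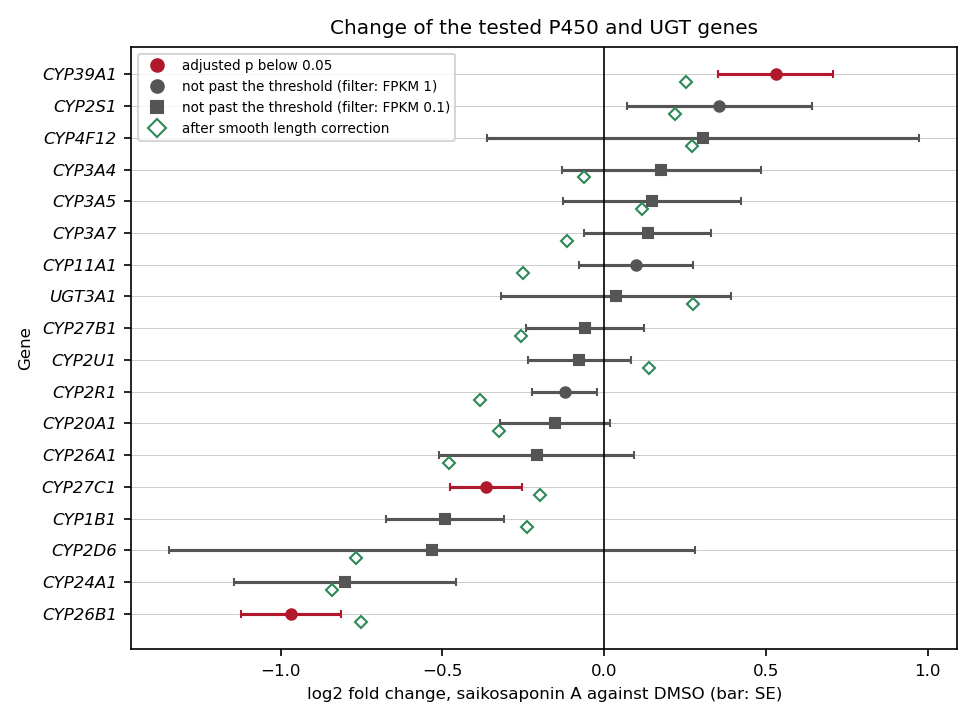
Log2 fold change of SsA against DMSO for the 18 tested P450 and UGT genes, with bars of 1 SE; circles are genes tested at the limit of 1 FPKM, squares at 0.1 FPKM, red marks an adjusted p below 0.05, and open diamonds are the values after the smooth correction for transcript length. Before the correction CYP26B1 lies lowest, at -0.97, and CYP39A1 highest, at 0.53; after it they lie at -0.75 and 0.25, with CYP24A1 lowest at -0.84 and UGT3A1 highest at 0.28.

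The retinoic acid hydroxylases of family 26 clear the hormone from cells and so set how much reaches its nuclear receptors. CYP26B1 (chr2:72129238-72148038, minus strand, GRCh38) had 13.95, 12.4 and 15.9 CPM of the TMM-scaled library size in DMSO replicates 1, 2 and 3 and 7.42, 8.07 and 6.13 CPM in SsA replicates 1, 2 and 3. Every SsA library was below every DMSO library. The mean was 14.1 ± 1.75 CPM (SD, n = 3) in DMSO and 7.21 ± 0.987 CPM (SD, n = 3) in SsA, a log2 fold change of -0.97 ± 0.15 (SE) with an adjusted p of 0.0022 by edgeR's quasi-likelihood test, or 51.1% of the DMSO level. In bulk RNA, fewer cells with the transcript and less of it per cell cannot be told apart. CYP26B1 was called under all 19 alternatives, with log2 changes from -1.13 to -0.71. It was also lower in the 4 libraries of low mitochondrial share, by a log2 change of -0.92.

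Its paralogue CYP26A1 had 2.64, 2.99 and 2.07 CPM in DMSO and 1.46, 2.94 and 2.03 CPM in SsA replicates 1, 2 and 3. The groups overlapped: SsA replicate 2 lay within the DMSO range, SsA replicate 3 just under it and SsA replicate 1 well below. Its log2 change was -0.21 ± 0.30 (SE), with an adjusted p of 0.622 by edgeR; whether it differs from that of CYP26B1 was not tested. CYP26C1, the third gene of the family and the neighbour of CYP26A1 on chromosome 10, had 8 counts in SsA replicate 3 and 0 in the other 5 libraries. The 3 genes together came to 3.17 to 3.49 FPKM in DMSO and 1.47 to 2.19 FPKM in SsA libraries.

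The promoters of CYP26B1 and CYP26A1 are shown because these 2 enzymes share a substrate and CYP26B1 stood at the higher level in FPKM in every library. Each is the 250 bases before an annotated start, from RefSeq on GRCh38.p14, at chr2:72147863-72148112 on the minus strand for CYP26B1 and at chr10:93073643-93073892 on the plus strand for CYP26A1, whose table has another window as well. Capitals mark a match to AGNTCANNNNNAGNTCA, a direct repeat with a spacer of 5 of the kind that retinoic acid receptors bind, searched on both strands and found here on the opposite one.
CYP26B1: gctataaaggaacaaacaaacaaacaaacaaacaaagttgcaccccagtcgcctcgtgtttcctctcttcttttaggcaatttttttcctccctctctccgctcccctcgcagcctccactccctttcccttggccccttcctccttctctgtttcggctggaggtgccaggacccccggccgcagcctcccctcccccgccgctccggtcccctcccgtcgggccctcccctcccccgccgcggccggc
CYP26A1: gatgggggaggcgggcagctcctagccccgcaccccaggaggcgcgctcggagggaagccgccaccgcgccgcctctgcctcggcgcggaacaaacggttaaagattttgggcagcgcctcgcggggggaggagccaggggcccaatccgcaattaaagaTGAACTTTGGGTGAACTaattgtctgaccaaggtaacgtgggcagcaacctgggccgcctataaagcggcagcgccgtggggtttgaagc
The repeat lies 90 to 74 bases before the CYP26A1 start of the window shown, which lies within the gene's annotated span. The other CYP26A1 window, at chr10:93073225-93073474, had 0 matches. It ends just before the gene's first annotated base, 93073475. The repeat was found in 23 of 35116 promoter windows of this length, 0.0655%, and CYP26A1 was the only one of the 29 members with a window that held it. The CYP26B1 window had no match, which says only that these letters are not in that stretch. TATAAA, the letters of a TATA box, was searched anywhere in the window on both strands. It was found in windows of 8 of these genes, CYP26A1 and CYP26B1 included, and in 10.7% of all windows. In the CYP26A1 window shown these letters lie near the start. In CYP26B1 they lie at the far end of the stretch from the start. Whether either acts as a TATA box was not tested.

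CYP27C1 (chr2:127183832-127220299, minus strand) was the highest P450 member; its enzyme is known to desaturate vitamin A in skin. Its level was 9.89, 10.02 and 6.93 FPKM in DMSO and 5.12, 6.61 and 6.81 FPKM in SsA replicates 1, 2 and 3, and in counts 54.0, 54.7 and 44.0 CPM against 35.6, 40.6 and 42.4 CPM. The groups did not overlap, but DMSO replicate 3 lay close to SsA replicate 3. The mean was 50.9 ± 5.99 CPM (SD, n = 3) in DMSO and 39.5 ± 3.53 CPM (SD, n = 3) in SsA, a log2 change of -0.36 ± 0.11 (SE) with an adjusted p of 0.0281 by edgeR. The 4 libraries of low mitochondrial share gave -0.42. The call was lost when any 1 of 4 libraries was left out: by edgeR the adjusted p was 0.0912 without DMSO replicate 1, 0.086 without DMSO replicate 2, 0.062 without SsA replicate 1 and 0.067 without SsA replicate 2. CYP20A1, an orphan P450 with no settled substrate, had 7.83, 5.96 and 5.50 CPM in DMSO and 5.58, 5.56 and 5.62 CPM in SsA replicates 1, 2 and 3, a log2 change of -0.15 ± 0.17 (SE) that did not pass. CYP2W1, a P450 of fetal gut and some tumours, had 12, 3 and 4 counts in DMSO and 0 in each SsA library. Its pooled DMSO level was 5.97-fold a floor of 3 counts over the SsA group. It was 3.40-fold that floor without DMSO replicate 1, which held 12 of the 19 counts. These ratios leave out counting error in DMSO and the spread between libraries, so neither is a lower limit of the change. The difference did not pass, with an adjusted p of 0.095 in the edgeR fit without a limit.

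Bile acid genes were represented by CYP39A1, a 24-hydroxycholesterol hydroxylase (chr6:46549580-46652830, minus strand). It had 3.61, 2.93 and 2.77 CPM in DMSO and 4.60, 4.65 and 4.20 CPM in SsA replicates 1, 2 and 3, so every SsA library was above every DMSO library. The mean rose from 3.10 ± 0.445 CPM to 4.48 ± 0.246 CPM (SD, n = 3 each), a log2 change of 0.53 ± 0.18 (SE) with an adjusted p of 0.0409 by edgeR. The gene sat at the filter, with at least 1 FPKM in 4 libraries, all 3 of SsA and 1 of DMSO. The call was lost when any library but DMSO replicate 1 was left out, with adjusted p up to 0.122 by edgeR. It was also lost when both libraries of high mitochondrial share were dropped, where the log2 change was 0.41 and the adjusted p 0.113 by edgeR. CYP7A1, the rate-limiting enzyme of bile acid synthesis, had at most 7 counts in a library, CYP27A1, the sterol 27-hydroxylase, at most 6, and CYP46A1, the cholesterol 24-hydroxylase, at most 3.

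Of the vitamin D genes, CYP2R1, CYP27B1 and CYP24A1 were above 0.1 FPKM. CYP2R1 (chr11:14877440-14892252, minus strand), a 25-hydroxylase, had 11.5, 11.9 and 11.8 CPM in DMSO and 10.2, 11.3 and 10.9 CPM in SsA replicates 1, 2 and 3. The groups did not overlap, but the log2 change was small, -0.12 ± 0.10 (SE), and did not pass, with an adjusted p of 0.338 by edgeR. CYP27B1, the 1-alpha-hydroxylase that makes the active hormone, had 3.26, 2.83 and 3.50 CPM in DMSO and 2.70, 3.08 and 3.08 CPM in SsA. These groups overlapped, and the log2 change of -0.06 ± 0.18 (SE) did not pass. CYP24A1, the enzyme that degrades the hormone, had 0.886, 0.733 and 0.786 CPM in DMSO and 0.326, 0.502 and 0.495 CPM in SsA. Its groups did not overlap, and SsA replicate 1, with 17 counts, was lowest. The log2 change of CYP24A1 was -0.80 ± 0.34 (SE), next in size to that of CYP26B1 among the 18 tested genes, but the adjusted p was 0.103 by edgeR, and under 18 alternatives it lay between 0.0873 and 0.236. VDR, the receptor of the hormone, was itself lower, at 20.2 ± 1.09 CPM in DMSO and 14.1 ± 0.730 CPM in SsA (SD, n = 3 each), with an adjusted p of 0.00303 by edgeR.

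**Figure D3:**
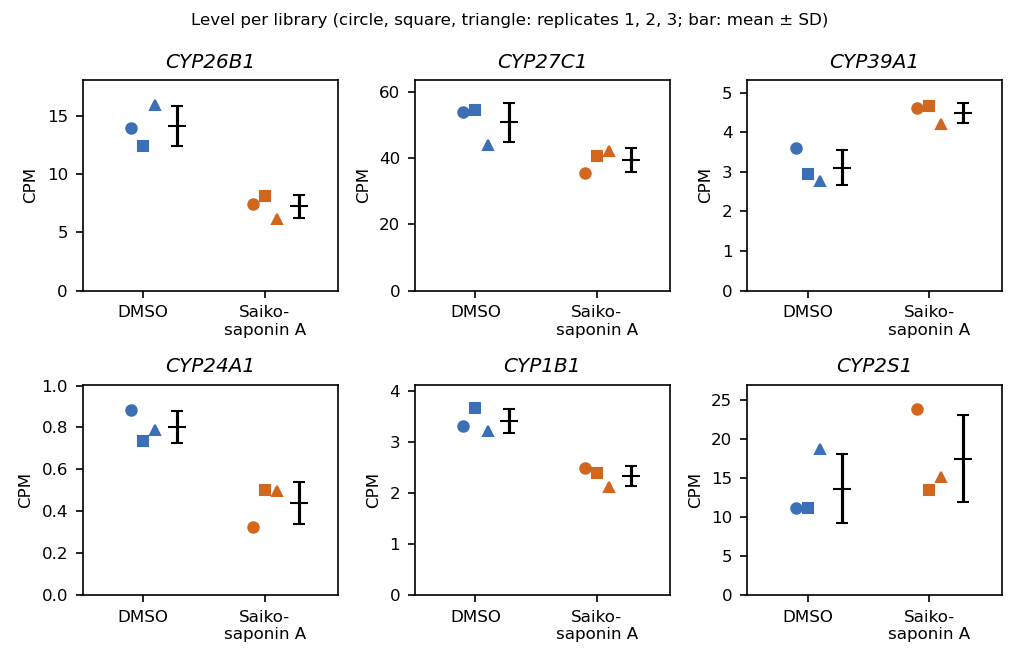
Level in CPM of 6 P450 genes in each library (circle, square and triangle for replicates 1, 2 and 3), with the mean ± SD of 3 libraries as a bar beside the points; each axis starts at 0. The groups do not overlap for CYP26B1, CYP27C1, CYP39A1, CYP24A1 and CYP1B1, while for CYP2S1 DMSO replicate 3 and SsA replicate 1 stand above the other libraries of their groups.

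Among P450 genes of fatty acids and eicosanoids, CYP2S1 was the highest; its enzyme is known from skin and airway and acts on lipid peroxides. CYP2S1 (chr19:41193210-41207539, plus strand) had 11.1, 11.1 and 18.7 CPM in DMSO and 23.8, 13.4 and 15.1 CPM in SsA replicates 1, 2 and 3. The highest library of each group was the one with the high mitochondrial share, and the groups overlapped. Over all 6 libraries the log2 change was 0.36 ± 0.29 (SE), with an adjusted p of 0.322 by edgeR. Over the 4 libraries without those 2 it was 0.33, with an adjusted p of 0.0329 by edgeR. CYP2U1, a long-chain fatty acid hydroxylase, had 0.757 to 0.980 FPKM in DMSO and 0.654 to 0.777 FPKM in SsA, and its log2 change in counts, -0.08 ± 0.16 (SE), did not pass. CYP4F12 had 13 to 58 counts per library with both extremes in the SsA group and a log2 change of 0.31 ± 0.67 (SE). CYP4F3, CYP4F11 and CYP4V2 had at most 10, 6 and 3 counts.

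CYP11A1, the mitochondrial enzyme that begins steroid synthesis by cutting the side chain of cholesterol, was detected at 1.62 ± 0.403 FPKM in DMSO and 1.53 ± 0.125 FPKM in SsA libraries (SD, n = 3 each). In counts it had 7.19, 5.94 and 4.98 CPM in DMSO and 6.54, 6.05 and 6.82 CPM in SsA replicates 1, 2 and 3, so the groups overlapped, and the log2 change of 0.10 ± 0.18 (SE) did not pass. STAR, which carries cholesterol to this enzyme, had 3 counts in 1 library and 0 in the other 5. On the strand opposite CYP11A1 lie the pseudogene PPIAP46, with 1785 to 2216 counts per library, and an antisense gene. Which strand was counted is not stated in the sources used here, so reads of such partners cannot be told apart from those of CYP11A1, which itself had 279 to 560 counts. CYP17A1, the next enzyme of the path, had 0, 0 and 8 counts in DMSO and 12, 5 and 20 counts in SsA replicates 1, 2 and 3. Its gene lies opposite WBP1L, which had 715 to 1507 counts per library.

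Family 1 is induced through the aryl hydrocarbon receptor AHR, which senses planar ring compounds and pairs with ARNT. CYP1B1 (chr2:38066973-38076154, minus strand) had 3.31, 3.67 and 3.21 CPM in DMSO and 2.49, 2.39 and 2.11 CPM in SsA replicates 1, 2 and 3. All SsA libraries were below all DMSO libraries, with means of 3.40 ± 0.238 CPM and 2.33 ± 0.199 CPM (SD, n = 3 each). The log2 change of -0.49 ± 0.18 (SE) missed the threshold, with an adjusted p of 0.0665 by edgeR, and passed under 2 of 18 alternatives. On the opposite strand RMDN2 had 111 to 188 counts per library, against 130 to 295 for CYP1B1. CYP1A1, the most inducible gene of the family, had 40, 50 and 15 counts in DMSO and 23, 20 and 24 counts in SsA. It was below both limits, and its log2 change of -0.28 ± 0.49 (SE) did not pass in the fit without a limit (adjusted p 0.735 by edgeR). AHR itself fell from 32.1 ± 5.64 to 18.8 ± 1.64 CPM (SD, n = 3 each; adjusted p 0.00379 by edgeR), a log2 change of -0.77. It was called under 18 of 19 alternatives; after the smooth correction for transcript length the log2 change was -0.29 and did not pass (adjusted p 0.115 by edgeR). AHRR, the repressor that AHR induces, had 22.3, 19.5 and 22.5 CPM in DMSO and 4.14, 6.49 and 2.30 CPM in SsA, a log2 change of -2.31 ± 0.34 (SE) with an adjusted p of 0.00161 by edgeR, and was called under all 19 alternatives. ARNT, with a log2 change of -0.26, did not pass (adjusted p 0.139 by edgeR).

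In the family 3A cluster on chromosome 7 no gene passed. CYP3A7 had 2.43, 2.94 and 3.21 CPM in DMSO and 3.22, 2.70 and 3.16 CPM in SsA replicates 1, 2 and 3. CYP3A5, a form found also outside the liver, had 2.84, 2.16 and 2.29 CPM in DMSO and 1.88, 2.41 and 3.48 CPM in SsA. CYP3A4 had 0.950, 0.994 and 0.696 CPM in DMSO and 1.03, 0.753 and 1.10 CPM in SsA. The groups overlapped for all 3, and the log2 changes were 0.13 ± 0.20, 0.15 ± 0.27 and 0.18 ± 0.31 (SE). These genes are close copies of each other, so reads may have been split among them. CYP3A43 had 4 counts in 1 library. NR1I3, the receptor known to induce drug-metabolising P450 genes in liver, had at most 13 counts in a library. Its partner in that role, NR1I2, had no row under that symbol.

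CYP2D6, which oxidises many antidepressants and opioids, had 33, 28 and 10 counts in DMSO and 26, 5 and 5 counts in SsA replicates 1, 2 and 3, so SsA replicate 1 stood with the DMSO libraries. Its log2 change was -0.53 ± 0.81 (SE) over 6 libraries and -2.28 over the 4 of low mitochondrial share, where it passed with an adjusted p of 0.0261 by edgeR. The near-copy CYP2D7 had 47, 29 and 11 counts in DMSO and 6, 10 and 0 counts in SsA, a log2 change of -2.08 ± 1.03 (SE) that did not pass in the fit without a limit (adjusted p 0.22 by edgeR). The split of reads between these copies is uncertain.

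Fold changes ran with transcript length over the genes tested at 1 FPKM. These were cut into 10 groups by the length of the longest annotated transcript. The median log2 change went from 0.60 in the shortest group to -0.64 in the longest. Members tested only at 0.1 FPKM were set against these groups by their log2 change in that second fit. The 2 fits differ slightly in scale: CYP27C1 had -0.36 in the first and -0.31 in the second. CYP26B1, with 4732 nt, lay below the quartiles of its length group, which were -0.51 and -0.01. CYP24A1, with 3262 nt, also lay below those of its group, -0.11 and 0.27. In all, 8 of the 18 tested members lay below the quartiles of their length group, 7 between and 3 above; the other 6 below were CYP2R1, CYP11A1, CYP27B1, CYP26A1, CYP20A1 and CYP2D6. By contrast CYP27C1 (4401 nt), CYP1B1 (5250 nt) and CYP39A1 (2269 nt) lay between the quartiles of their groups. After a smooth correction for length the log2 change of CYP26B1 was -0.75 with an adjusted p of 0.0092, that of CYP27C1 -0.20 with an adjusted p of 0.233 and that of CYP39A1 0.25 with an adjusted p of 0.323, all by edgeR. CYP2R1 (2325 nt) passed after this correction, with a log2 change of -0.38 and an adjusted p of 0.0248 by edgeR. That was the only 1 of 19 alternatives in which it passed. A linear correction for the same length gave -0.18 with an adjusted p of 0.173 by edgeR. The length implied by its counts and FPKM was 5235 nt, and a linear correction for implied length gave -0.07 (adjusted p 0.609 by edgeR). The smooth correction thus ended the calls of CYP27C1 and CYP39A1 and kept that of CYP26B1.

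**Figure D4:**
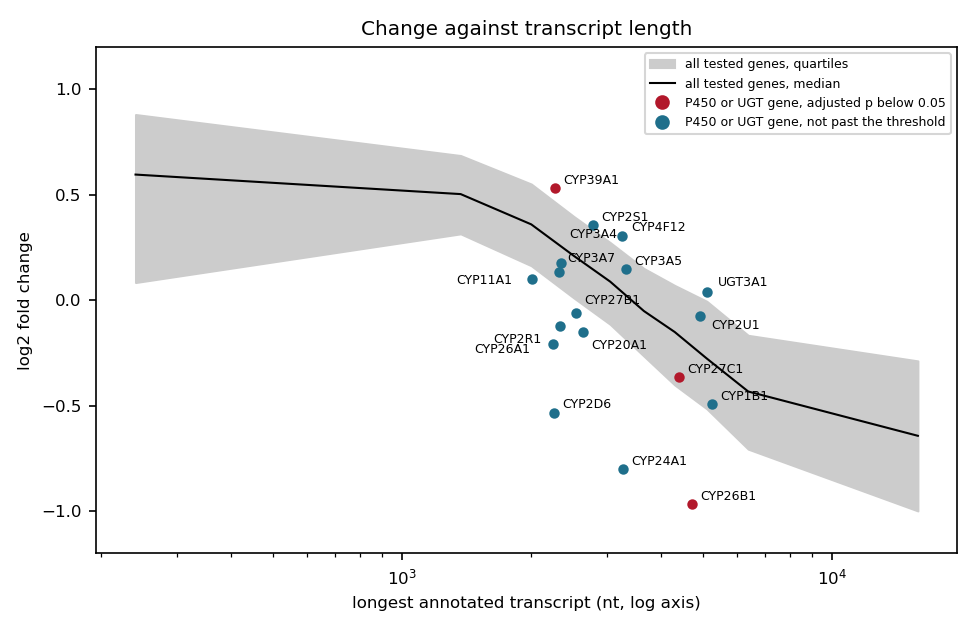
Log2 fold change of SsA against DMSO by length of the longest annotated transcript (log axis). The line and grey band are the median and quartiles, in 10 length groups, of the genes tested at 1 FPKM. Points are the 18 tested P450 and UGT genes, red where the adjusted p was below 0.05 by edgeR. Points of genes below the limit of 1 FPKM come from the fit at 0.1 FPKM. CYP26B1 and CYP24A1 are among the 8 genes below the quartiles of their length group, and CYP27C1 and CYP39A1 are among the 7 between them.

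Other genes of these pathways were read from lists. The counts of called genes in them in the main fit stand against 25.9% higher and 27.9% lower over all tested genes. On log2(TPM + 1) 49 of all 11427 tested genes were higher and 2446 lower. With the smooth length correction 1770 of them were higher and 1744 lower. P450 redox partners had 7 of 10 tested genes higher and 0 lower, with a median log2 change of 0.38 against 0.03 for all tested genes. They included FDXR, which passes electrons to the ferredoxin of mitochondrial P450 enzymes (0.72), FDX2 (0.64), a ferredoxin of iron-sulphur cluster assembly, the haem-binding PGRMC1 (0.52) and POR, the P450 reductase (0.30, from 58.1 ± 0.945 to 71.3 ± 3.75 CPM, SD, n = 3 each; adjusted p 0.0079 by edgeR). Genes of haem synthesis and breakdown had 5 of 12 higher and 0 lower, with UROD, an enzyme of haem synthesis, at 0.64 and the biliverdin reductases BLVRB and BLVRA at 0.86 and 0.59. ALAS1, the first enzyme of haem synthesis, did not pass (-0.12). Of the xenobiotic receptors and partners 2 of 12 were higher and 6 lower, with a median of -0.39. Besides AHRR, AHR and VDR these were RXRA, the partner of many nuclear receptors (-0.64), NR2F1 (-0.49) and PPARA, a fatty acid sensor, which went from 19.5 to 9.73 CPM. PPARA was called in 18 of 19 alternatives and RXRA in 17 of 19, with log2 changes as small as -0.34 and -0.28. AHRR, NR2F1 and VDR were called in all 19. In the scale of log2(TPM + 1) 0 genes of the redox and haem lists were called, POR had a value of -0.07 and CYB5B of -0.01, and 7 receptors were lower. The smooth length correction left 5 redox partners higher, 1 haem gene higher and 1 lower, and 1 receptor higher and 3 lower; the median transcript length was 4830 nt for the receptors and 2288.5 nt for the haem genes.

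On the conjugation side, UGDH, which makes UDP-glucuronic acid, and UGP2, which makes its precursor, did not pass, with log2 changes of 0.06 and 0.13. Main-fit counts that follow stand against the same 25.9% higher and 27.9% lower over all tested genes. Counts on log2(TPM + 1) stand against 49 higher and 2446 lower of 11427 genes. Those after the smooth length correction stand against 1770 higher and 1744 lower of the same genes. The list of UDP-glucuronic acid supply and return had 5 of 9 genes higher, among them GUSB, the lysosomal glucuronidase (0.35), and 1 lower, the endoplasmic reticulum transporter SLC35D1 (-0.39). GUSB lay at -0.01 on log2(TPM + 1) and SLC35D1 at 0.01 after the smooth length correction. Glutathione and other transferases had 15 of 19 genes higher and 0 lower, with a median of 0.56: GSTP1, a glutathione transferase, had 0.92, MGST3 0.68 and GSTM3 0.61. Other phase I enzymes had 12 of 20 higher and 1 lower, with AKR1C2, a steroid reductase, at 0.85, CBR1, a carbonyl reductase, at 0.65 and CES2, a carboxylesterase, at -0.48. On log2(TPM + 1) 1 transferase and 0 phase I genes were called higher, and after the smooth length correction 9 and 5 were. Sulphotransferases and the supply of their sulphate donor had 2 of 8 higher and 0 lower. Several of these genes (AKR1C, GSTM, SULT1A) have near-identical copies between which reads may be split. Of 5 tested targets of AHR outside both families 2 were higher and 2 lower: NQO1, a quinone reductase, at 0.52, ALDH3A1 at 0.54, TIPARP at -0.24 and AHRR as given above. On log2(TPM + 1) 0 were higher and 1 lower. ALDH3A1 was called in 7 of 19 alternatives, and in 1 of 6 with a library left out, and TIPARP in 9 of 19.

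**Figure D5:**
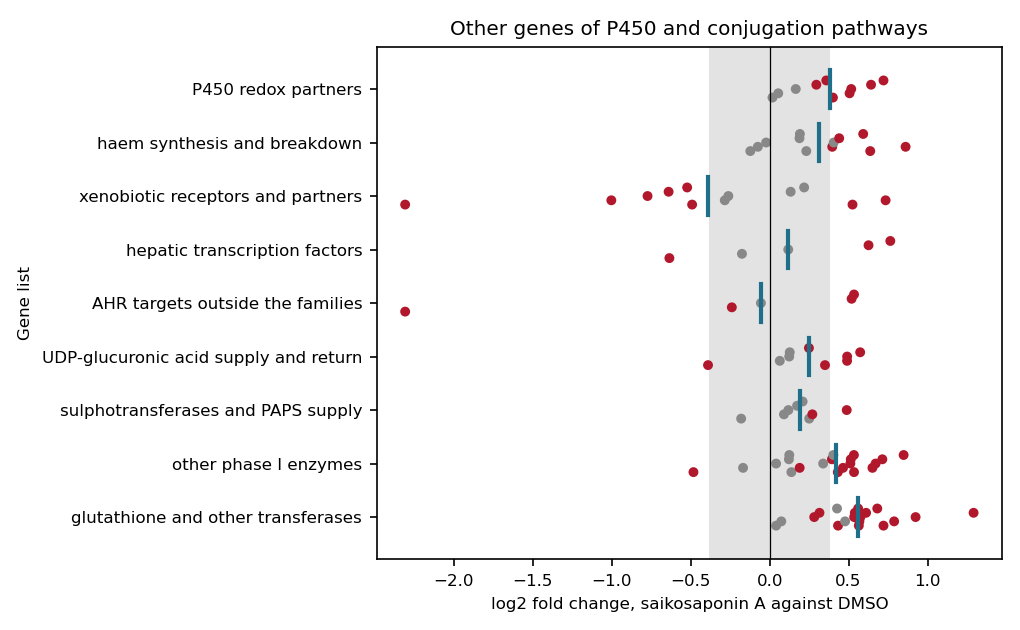
Log2 fold change of SsA against DMSO for each tested gene in 9 lists, red where the adjusted p was below 0.05 and grey otherwise, with the list's median as a blue line and the quartiles of all tested genes, -0.38 to 0.38, as a grey band; AHRR and ALDH3A1 each stand in 2 lists. The medians range from -0.39 for the receptors to 0.56 for glutathione and other transferases.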

How the data were processed

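RNA of 6 libraries, 3 per group, was described by 1 deposited table. Per the submitters' processing notes, the build was GRCh38 and the tools were HISAT2 2.0.4, StringTie 1.3.4d and cutadapt 1.9; for the counting step and its strand setting, the sources used here say nothing. The deposited values include whole-number counts, read as raw because their totals differ between libraries. They also include FPKM, which the authors scaled by library size and gene length, per the file headers. SA in a column name was taken as saikosaponin A, and no such mark as DMSO.

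FPKM served for levels and for the filter of at least 1 FPKM in at least 3 libraries (0.1 FPKM in the second fit). Counts were tested with edgeR 4.0.16 (R 4.3.3), TMM scaling and the two-sided quasi-likelihood test, adjusted over all tested rows by Benjamini-Hochberg with a threshold of 0.05. SE is the absolute log2 change divided by the square root of F. CPM values are relative to TMM-scaled library sizes, unless given as a share of the total count. Lengths are those of the longest GENCODE 29 transcript. Alternatives used DESeq2 1.42.0 and limma 3.58.1 with pseudocounts of 1 and 0.1. The fits were tested on simulated counts. At 1 FPKM 40.3% of 1.5-fold and 98.5% of 2-fold changes were recovered, and at 0.1 FPKM 28.4% and 73.1%. Both simulations used the common variation between libraries of the first fit, 15.3%. In the second fit it was 20.1%, so the rates at 0.1 FPKM do not describe that fit at its own variation. Depth limits low members: a floor of 3 counts was used.

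Members with at least 0.1 FPKM on average, past the filter or past an unadjusted threshold were named with values, and up to 4 called genes of smallest p per list. VDR, STAR, ALAS1 and members below 0.1 FPKM were named after their values were seen. Members and lists were chosen with earlier results of these data known.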

Additional observations from a re-analysis of the deposited data

How the results depend on the processing

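By the count of the 6 tested P450 genes past the threshold, 3 in the main analysis, the alternatives gave 1 with limma on log2(FPKM + 1), log2(FPKM + 0.1) or log2(TPM + 1), 1 with a linear correction for annotated length or for the length implied by count and FPKM (the latter chosen after seeing the data), 1 with no filter, and 1 to 2 with each replicate left out in turn. CYP26B1 was called in each of these. Over all tested genes, 6146 calls became 2495 on log2(TPM + 1) and 3514 with the smooth length correction, and 4599 to 6402 with a replicate left out. Pathway lists had 62 calls among 101 genes, 30 on both FPKM scales, 11 on log2(TPM + 1), 34 with the smooth length correction and 48 to 64 with a replicate left out. Members with a mean at the detection limit numbered 6, and 10 at a limit of 0.5 FPKM and 17 at 0.1 FPKM. On log2(TPM + 1) the sign turned for CYB5B (-0.0063), GUSB (-0.013), PAPSS1 (-0.094) and POR (-0.068), and with the smooth length correction for SLC35D1 (0.014) and UGGT1 (0.18); the causes were not tested. Of the tested members not called, CYP2R1, CYP1B1, CYP24A1 and CYP2D6 stayed below 0 under every alternative run, and the others had values on both sides of 0. Deviations of same-numbered libraries from their group means had correlations of -0.34, 0.29 and -0.35. The correlation of DMSO replicate 3 with SsA replicate 1, the libraries of high mitochondrial share, was 0.55. That shared deviation bears on every correlation, so the check cannot show whether same-numbered libraries were paired. With the replicate block 1 P450 gene (CYP26B1) and 4616 genes in all passed. Depth limits members below 0.1 FPKM, with at most 58 counts per library.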
